A study of Homo sapiens with 6 samples.

Results

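The spindle assembly checkpoint holds a dividing cell in metaphase until every chromosome is attached to the spindle. Its kinases and adaptors gather at unattached kinetochores and build an inhibitor that captures CDC20, the activator of the anaphase-promoting complex (APC/C), a ubiquitin ligase. When the checkpoint is satisfied, CDC20 is released, the APC/C destroys cyclin B and securin (PTTG1), and the protease separase (ESPL1) is freed to cleave the cohesin that joins the sister chromatids. FZR1, also called CDH1, takes over from CDC20 as the APC/C activator at the end of mitosis and in G1. Many genes of this machinery are transcribed mostly in G2 and mitosis, so in a growing culture their RNA level also follows the share of dividing cells.

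The 10 genes described here were chosen by name: the checkpoint kinases and adaptors TTK, BUB1, BUB1B and BUB3, the MAD proteins MAD1L1 and MAD2L1, the APC/C activators CDC20 and FZR1, and securin and separase, PTTG1 and ESPL1. Each matched exactly 1 of the 58825 gene identifiers in the table, and all 10 were among the 16208 genes that passed the filter on low counts. RNA came from SKOV3, an established human epithelial ovarian cancer cell line, collected 48 h after transfection with either a control siRNA (NC) or si-EIF5A2, a synthetic duplex against the translation factor gene EIF5A2. Each group had 3 libraries. Both groups were thus transfected cells, the knockdown was transient and partial, and the study lists 1 siRNA duplex against EIF5A2, used here in 1 cell line. The labels do not say whether the 3 libraries of a group came from separate cultures, so p-values measure only the spread between these libraries.

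The libraries held 46900204 to 74142267 estimated counts, and low values piled up at multiples of 3.74 to 3.82 counts, so that the depth was about 12500000 to 19700000 sequenced fragments. EIF5A2, the targeted gene, had 27.8, 29.8 and 29.9 CPM (counts scaled to the same library total in every library, with edgeR's TMM factors) in NC, against 2.76, 4.04 and 4.27 CPM after knockdown, so that 12.7% of its NC level was left. Of 8 epithelial markers, KRT8, KRT18 and KRT7 were abundant, with NC means of 608, 418 and 382 CPM. The NC mean of ERBB2 was 45.9 CPM. KRT19 had 3.22 CPM, EPCAM 1.55 CPM and the cadherin gene CDH1 (not FZR1) 0.663 CPM, and MUC1 did not pass the filter. KRT8 and KRT7 were called down after knockdown. The leukocyte markers PTPRC and CD3E were at 0 counts in every library. The part of the leukocyte list that passed the filter reached at most 57.3 CPM in NC and at most 55.5 CPM after knockdown. It was CD68 alone, a lysosomal protein abundant in macrophages, with means of 46.3 and 39.1 CPM, and CD68 was not called. The part of CD68-expressing cells in the results was not tested. The fibroblast and endothelial markers that passed the filter summed to at most 2.06 and 2.37 CPM. Of those left out, COL3A1 had the highest count, at most 34 in any library. A count of 0 allows up to 3 fragments, or 0.153 to 0.24 CPM, which covers counting error only.

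The promoters are shown first because most of these genes moved together. RefSeq (GRCh38.p14) gives a promoter window, 250 bases before to 50 bases after the start, for 8 of the 10 genes, and BUB3 and TTK were not matched. The windows were searched on both strands for the cell cycle genes homology region (CHR, TTTGAA or TTCGAA), the element through which the MuvB complex acts on many G2/M genes, for the CCAAT box, and for the E2F letters TTTGGCGC, TTTCGCGC and TTTGGCGG. The bases just before the RefSeq start are printed 5′ to 3′ on the gene's strand, shortened where needed so that no more than 30 bases lie past the gene start in GENCODE 29, with every CHR (TTTGAA) and CCAAT (or its complement ATTGG) match in capitals. Shown are the genes with at least 60 bases left after shortening, so that MAD1L1 and MAD2L1 are described but not printed:
CDC20, chr1:43358871-43358980, plus strand: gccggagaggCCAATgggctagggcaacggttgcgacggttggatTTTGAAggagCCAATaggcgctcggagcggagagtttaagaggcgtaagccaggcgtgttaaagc
BUB1, chr2:110678085-110678173, minus strand: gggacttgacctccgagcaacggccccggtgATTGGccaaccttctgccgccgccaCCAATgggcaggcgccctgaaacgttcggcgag
PTTG1, chr5:160421745-160421851, plus strand: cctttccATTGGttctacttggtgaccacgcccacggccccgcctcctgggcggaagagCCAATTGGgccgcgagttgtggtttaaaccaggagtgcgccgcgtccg
ESPL1, chr12:53268189-53268298, plus strand: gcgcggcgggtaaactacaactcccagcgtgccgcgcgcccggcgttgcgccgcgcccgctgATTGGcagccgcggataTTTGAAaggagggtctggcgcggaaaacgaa
BUB1B, chr15:40160959-40161052, plus strand: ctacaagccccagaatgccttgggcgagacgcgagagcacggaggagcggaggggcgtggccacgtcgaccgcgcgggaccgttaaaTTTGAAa
FZR1, chr19:3506201-3506302, plus strand: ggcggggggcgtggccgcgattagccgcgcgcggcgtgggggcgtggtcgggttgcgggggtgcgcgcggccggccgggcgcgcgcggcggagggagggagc

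In the whole windows, CHR letters were found for 6 of the 8 genes, BUB1, BUB1B, CDC20, ESPL1, FZR1 and MAD2L1, and in 16.4% of all 35116 promoters. CDC20 held the letters at positions -178 and -65 (first base of the match, with the start counted as 0), ESPL1 at -31 and BUB1B at -23. The match of FZR1 lay at -226, outside the bases printed, and those of BUB1 and MAD2L1 lay past the start, at 1 and 24. CCAAT letters were found for 5 genes, BUB1, CDC20, ESPL1, MAD2L1 and PTTG1, against 34.6% of all promoters. The shares of all promoters count windows and not genes. The 8 genes have 10 windows between them, of which 6 held CHR letters and 6 held CCAAT letters. In PTTG1 a CCAAT and an ATTGG match overlap in the printed run CCAATTGG. None of the 8 genes held an E2F match by these letters, which occurred in 1.79% of all promoters. MAD1L1 held no match of any of the 3 kinds. These are matches of letters and say nothing about which factor was bound in SKOV3 cells.

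After EIF5A2 knockdown, 8 of the 10 genes fell by more than 1.5-fold with an adjusted p below 0.05 (edgeR quasi-likelihood fit, Benjamini-Hochberg over 16208 genes), whereas 13.6% of all genes tested were called down by the same rule. None of the 10 was called up, against 11.1% of all genes tested. The median log2 fold change of the 10 genes was -2.21, beside -0.010 over all genes tested. The 6 genes CDC20, BUB1B, TTK, BUB1, PTTG1 and MAD2L1 fell by a factor of 4 or more, a size reached by 3.46% of all genes tested. ESPL1 and FZR1 were called down with changes of less than 2-fold. BUB3 and MAD1L1 were not called. With no limit on the fold change MAD1L1 was called as well, 9 of the 10 genes against 36.9% of all genes tested in either direction. With an unadjusted p under 0.05 and a change of over 2-fold, 6 of the 10 were called, against 14.6%. The CPM ranges of the groups were apart for 9 of the 10 genes, 8 lower and 1 higher after knockdown, against 51.2% of all genes tested in either direction and 26.5% in the lower direction.

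**Figure D1:**
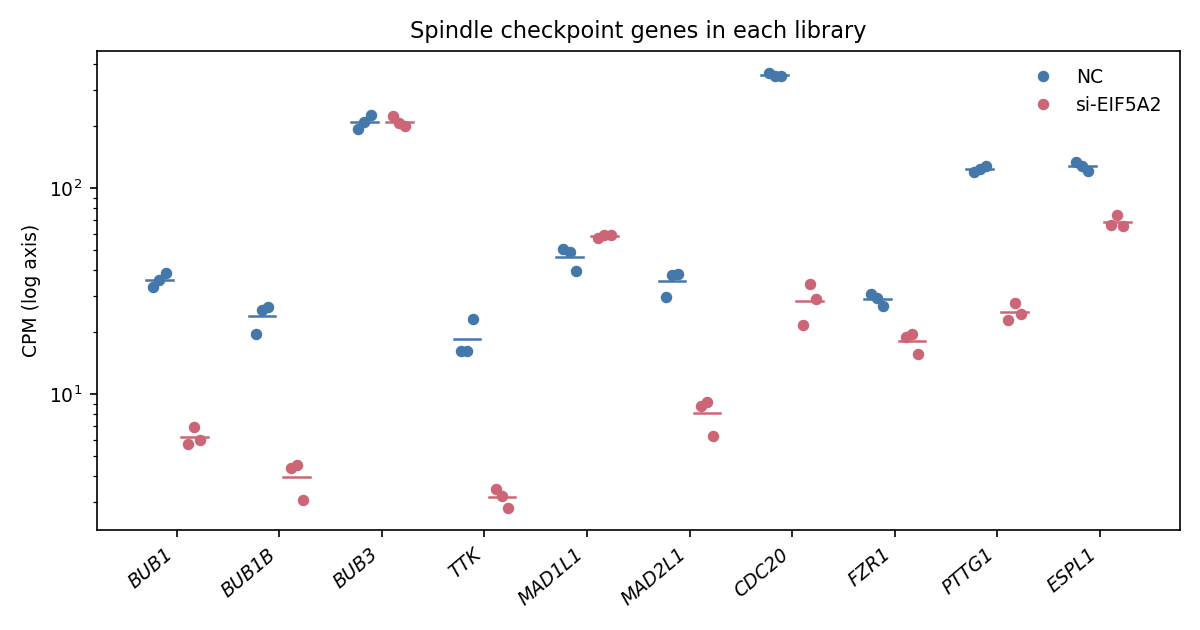
CPM of the 10 genes in each of the 3 NC (blue) and 3 si-EIF5A2 (red) libraries on a log axis, with a short line at each group mean. The groups are apart in every gene except BUB3, and in MAD1L1 the si-EIF5A2 libraries are the higher ones.

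TTK, also known as MPS1, is the kinase that starts the checkpoint by phosphorylating the kinetochore scaffold KNL1. TTK (chromosome 6, 80003887 to 80042527, plus strand) had 16.3, 16.2 and 23.1 CPM in NC and 3.46, 3.22 and 2.79 CPM in si-EIF5A2 libraries. NC replicate 3 was the highest NC library, and the groups did not overlap. The edgeR estimate was -2.55 on the log2 scale (standard error 0.19, adjusted p = 4e-05), a 5.86-fold fall.

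BUB1 is the kinase that docks on phosphorylated KNL1 and marks centromeric chromatin. BUB1 (chromosome 2, 110637698 to 110678114, minus strand) had 33.0, 35.7 and 38.7 CPM in NC and 5.77, 6.95 and 5.98 CPM in si-EIF5A2 libraries. All NC libraries lay far above all si-EIF5A2 libraries. On the log2 scale edgeR put the change at -2.52 (standard error 0.12, adjusted p = 7.66e-06). BUB1B encodes BUBR1, a subunit of the mitotic checkpoint complex that binds CDC20. BUB1B (chromosome 15, 40161023 to 40221136, plus strand) had 19.7, 25.6 and 26.6 CPM in NC and 4.38, 4.52 and 3.06 CPM in si-EIF5A2 libraries. The lowest NC library, replicate 1, was still above every si-EIF5A2 library. BUB1B changed by -2.58 on the log2 scale in the same edgeR fit (standard error 0.20, adjusted p = 4.69e-05). The read-through gene BUB1B-PAK6 shares 457 exon bases with BUB1B on the same strand, 10.2% of its merged exons, and held 2 counts in NC replicate 1 and 0 in the other libraries.

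BUB3 is the small adaptor that carries BUB1 and BUBR1 to KNL1. BUB3 (chromosome 10, 123154277 to 123170467, plus strand) had 194, 209 and 227 CPM in NC and 223, 207 and 199.9 CPM in si-EIF5A2 libraries. The groups overlapped over most of their range. In the edgeR fit the log2 difference was -5.4e-04 with a standard error of 0.083 (adjusted p = 0.997) and a 95% interval from -0.19 to 0.19. The interval lies inside the 1.5-fold limits used for the calls. Within this group of kinases and adaptors, the partners BUB1 and BUB1B thus fell while BUB3 was not called.

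**Figure D2:**
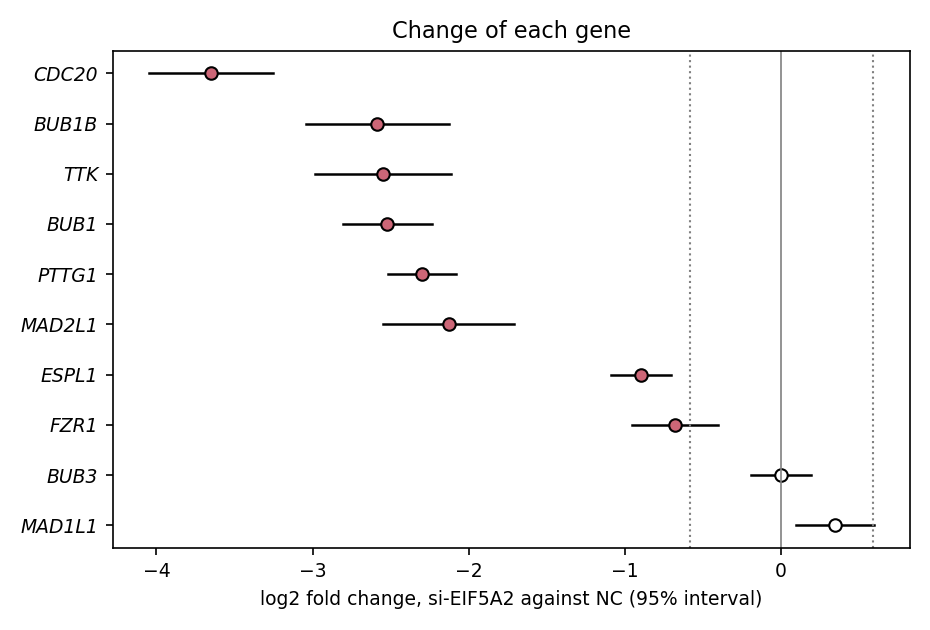
Log2 fold change of each gene after EIF5A2 knockdown with its 95% interval from edgeR's fit, filled where the gene was called and open where it was not; dotted lines mark the 1.5-fold limits. CDC20 lies lowest at -3.65, and BUB3 and MAD1L1 are the open points.

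MAD2L1 encodes MAD2, the protein that changes shape at kinetochores and then seizes CDC20. MAD2L1 (chromosome 4, 120055608 to 120067074, minus strand) had 29.5, 38.1 and 38.5 CPM in NC and 8.82, 9.18 and 6.25 CPM in si-EIF5A2 libraries. Its groups were widely apart, with NC replicate 1 again the lowest NC library. It fell by 2.13 on the log2 scale in the edgeR fit (standard error 0.18, adjusted p = 8.28e-05). MAD1L1 encodes MAD1, the kinetochore template on which MAD2 is converted. MAD1L1 (chromosome 7, 1815793 to 2233243, minus strand) had 50.5, 49.1 and 39.4 CPM in NC and 57.5, 59.2 and 59.5 CPM in si-EIF5A2 libraries. Every si-EIF5A2 library was above every NC library, and NC replicate 3 was the lowest. For MAD1L1 edgeR gave a log2 difference of 0.34 (standard error 0.11, 95% interval 0.092 to 0.59, adjusted p = 0.0391), or 1.27-fold, below the limit of 1.5. Leaving out 1 library at a time gave adjusted p-values from 0.035 to 0.105 in the edgeR fit, over 0.05 without any library but NC replicate 1, and without NC replicate 3 the log2 difference was 0.23.

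CDC20 had the largest change in RNA of the 10 genes. The study reports CDC20 as a possible target of EIF5A2 by qRT-PCR, but its western blots did not show CDC20 protein to be regulated by EIF5A2. Its qRT-PCR primer list also holds BUB1B, but its text names only E2F1, CDC20 and PLK1 as possible targets. The text of the study prints no qRT-PCR value for BUB1B. CDC20 (chromosome 1, 43358955 to 43363203, plus strand) had 364, 351 and 349.6 CPM in NC and 21.6, 34.2 and 29.1 CPM in si-EIF5A2 libraries. The NC libraries were close together, while the si-EIF5A2 libraries spread more in proportion, with replicate 1 the lowest. This was a 12.6-fold fall, -3.65 on the log2 scale by edgeR (standard error 0.17, 95% interval -4.05 to -3.25, adjusted p = 9.1e-06). FZR1, the other APC/C activator (chromosome 19, 3506273 to 3538330, plus strand), had 30.8, 29.4 and 26.8 CPM in NC and 19.1, 19.6 and 15.7 CPM in si-EIF5A2 libraries. The groups did not overlap, but the gap between them was small beside that of CDC20. FZR1 changed by -0.68 on the log2 scale by edgeR (standard error 0.12, 95% interval -0.96 to -0.41, adjusted p = 0.00288), and 62.3% of the NC level was left. MFSD12, a gene on the opposite strand, shares 70 exon bases with FZR1, 1.21% of its merged exons, and was called up (0.73 on the log2 scale); whether the counting used strand is not given in the sources used here.

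PTTG1, or securin, is the inhibitor and chaperone of separase. PTTG1 (chromosome 5, 160421822 to 160428744, plus strand) had 120, 124 and 128 CPM in NC and 23.0, 27.8 and 24.6 CPM in si-EIF5A2 libraries. Both groups were tight, and the standard error was among the smallest of the 10 genes. PTTG1 fell by 2.30 on the log2 scale in the edgeR fit (standard error 0.095, adjusted p = 5.17e-06). The near-identical PTTG2 and PTTG3P, whose reads could be shared with PTTG1, held at most 4 and 14 counts in any library, beside at least 1174 for PTTG1. ESPL1 (chromosome 12, 53268299 to 53293643, plus strand) encodes separase and had 134, 129 and 121 CPM in NC and 66.4, 74.3 and 65.3 CPM in si-EIF5A2 libraries. Its groups were clearly apart. ESPL1 changed by -0.90 in log2 by edgeR (standard error 0.083, adjusted p = 1.22e-04), and 53.6% of the NC level was left.

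The unequal changes altered the ratios between partners within each library. The ratios were taken as differences of log2 CPM (prior count 2) for 5 pairs chosen by function. The log2 ratio of CDC20 to FZR1 was 3.56, 3.58 and 3.70 in NC and 0.18, 0.80 and 0.89 in si-EIF5A2 libraries. The mean ratio of the APC/C activators, in CPM, thus went from 12.2 to 1.54, a difference of -2.99 on the log2 scale. For MAD2L1 to MAD1L1 the log2 ratio was -0.78, -0.37 and -0.034 in NC and -2.70, -2.69 and -3.24 in si-EIF5A2 libraries, with a mean difference of -2.48. For BUB1 to BUB3 it was -2.56, -2.54 and -2.55 in NC and -5.26, -4.89 and -5.05 after knockdown. The BUB1 to BUB3 ratio was thus nearly constant over the NC libraries (SD 0.0070, n = 3), and its mean differed by -2.52 between the groups. BUB1B to BUB3 differed by -2.59, and the group ranges were again apart. For PTTG1 to ESPL1, securin to separase, the log2 ratio was -0.16, -0.060 and 0.071 in NC and -1.53, -1.42 and -1.40 in si-EIF5A2 libraries. The mean securin to separase ratio in CPM went from 0.967 to 0.366, a difference of -1.40 on the log2 scale. CPM is not corrected for gene length, so these ratios show the change between groups and not which partner is higher. Per kb of merged exons, PTTG1 stayed above ESPL1, at 61.4 against 14.4 in NC and 12.5 against 7.72 after knockdown. Each of the 5 ratios gave an exact permutation p of 0.1 (2-sided, 0.1 after adjustment over the 5 pairs), which is the smallest p that 3 against 3 libraries allow.

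**Figure D3:**
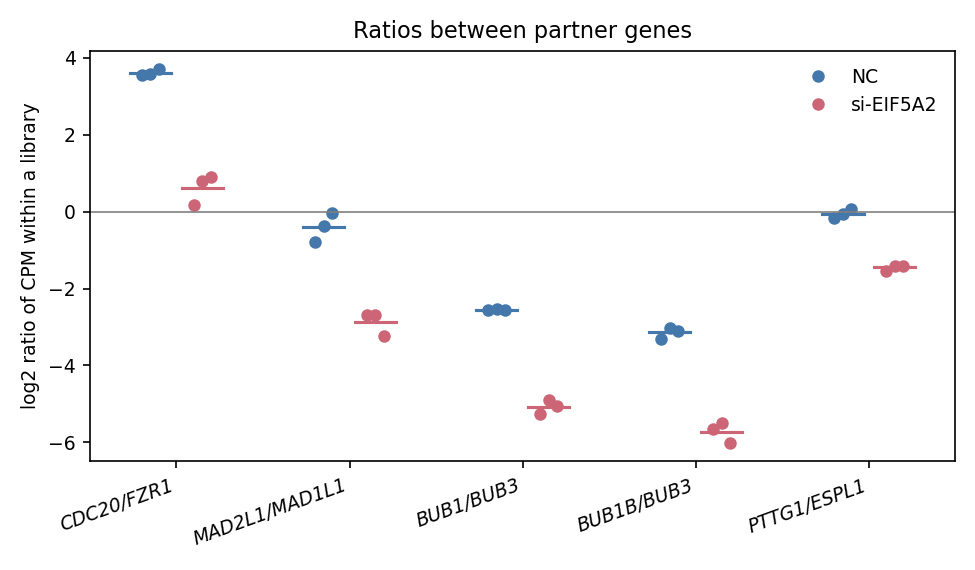
Log2 ratio of CPM between partner genes within each of the 3 NC (blue) and 3 si-EIF5A2 (red) libraries, with a short line at each group mean. All 5 ratios are lower in every si-EIF5A2 library than in every NC library, with CDC20 to FZR1 showing the largest difference (-2.99) and PTTG1 to ESPL1 the smallest (-1.40).

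Levels were compared between genes as CPM per kb of merged exons. In NC, CDC20 was highest at 174 (range 172 to 179, n = 3), followed by PTTG1 at 61.4, BUB3 at 25.3 and ESPL1 at 14.4, with no overlap between neighbours among these 4. The other 6 genes, MAD1L1, MAD2L1, BUB1, BUB1B, FZR1 and TTK, had means between 6.41 and 4.05, and each overlapped its neighbour in the order. After knockdown, BUB3 was highest at 25.3 (range 24.1 to 26.9), and CDC20 at 13.9 and PTTG1 at 12.5 overlapped each other. MAD1L1 at 8.13 and ESPL1 at 7.72 also overlapped, FZR1 stood alone at 3.12, and MAD2L1, BUB1, BUB1B and TTK came last with means from 1.41 to 0.69 and overlapping neighbours. Divided instead by the length of the principal transcript, CDC20 was again highest in NC at 199.8 CPM per kb. On that scale CDC20 had 15.9 CPM per kb after knockdown, below the means of BUB3 (26.8), PTTG1 (23.5) and MAD1L1 (19.6), though its range still touched that of MAD1L1.

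**Figure D4:**
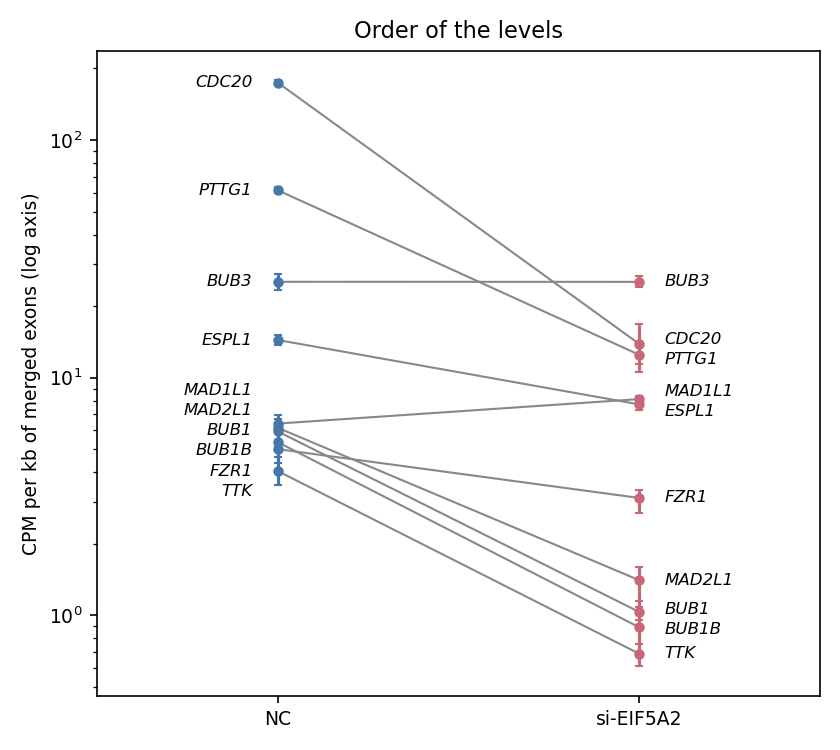
Mean level of each gene in CPM per kb of merged exons (log axis) in NC (left) and si-EIF5A2 libraries (right), with bars from the lowest to the highest of 3 libraries and a line joining each gene's means. CDC20 goes from 174 to 13.9 and crosses BUB3, which stays at 25.3.

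The fall of these genes went together with a fall of cell cycle genes in general. A set of 50 genes that mark G2/M cells, which holds none of the 10, summed to 4738 to 5075 CPM in NC and to 1714 to 1894 CPM in si-EIF5A2 libraries, and 46 of the 50 were called down. Their median log2 fold change was -2.37, and over all genes tested 13.6% were called down. Of the 43 S phase markers 36 were called down, with a median of -1.70 and a summed level of 1338 to 1513 CPM in NC and 615 to 637 CPM after knockdown. In bulk RNA, fewer cells in G2 and mitosis and less RNA of these genes per cell cannot be told apart, and the part of the cell cycle in the values of the 10 genes was not tested. Set among the 50 G2/M genes, CDC20 had a lower log2 fold change than all but 1 of them. BUB1B, TTK and BUB1 lay in the middle, with 19, 20 and 20 G2/M genes below them, and PTTG1 and MAD2L1 had 29 and 31 below them. ESPL1 and FZR1 had 44 and 45 of the 50 below them, BUB3 had 47, and MAD1L1 had all 50.

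The genes around the checkpoint were then counted by role, where 13.6% of all genes tested were called down and 11.1% up. Of 20 genes listed under recruitment and silencing of the checkpoint, 13 were called down and 1 was called up, with a median log2 fold change of -1.79. Not all of the 20 act at kinetochores. The list also holds TPR, RAE1, NUP98 and MAD2L2, which were not called. The fallers included KNL1, the scaffold on which TTK acts (11.4 to 1.70 CPM, log2 fold change -2.74), and TRIP13, the ATPase that takes apart the MAD2 complex (47.8 to 3.59 CPM, -3.73). MAD2L1BP, which encodes the TRIP13 adaptor p31comet, was not called, with 40.5 CPM in NC and 48.9 CPM after knockdown. ZW10, a subunit of the RZZ complex that helps to recruit MAD1, was the gene called up (6.55 to 11.8 CPM, 0.85). Its RZZ partner KNTC1 fell by 1.06 on the log2 scale, and ZWILCH, at -0.43, was not called.

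Of 19 targets and inhibitors of CDC20 and FZR1, 18 were called down and none up, with a median log2 fold change of -2.43. They ran from CDCA5, or sororin, a cohesin protector (-4.12), through the cyclins CCNA2 (-3.46) and CCNB1 (-2.72) to SKP2 (-0.99). FBXO5, which encodes the APC/C inhibitor EMI1, was among them at -2.26. The deubiquitinase gene USP44 was the gene not called, at about 1 CPM in si-EIF5A2 libraries. Of these 19 genes 11, and of the 20 recruitment genes 5, are also on the G2/M or S phase marker lists. Over all genes tested, 13.6% were called down and 11.1% up. Of 14 cohesin genes and protectors downstream of separase, 3 were called down, a share of 21.4% and not far from that of all genes. In this list 1 was called up, and the median was -0.15. The 3 called down were the shugoshins SGO1 (-2.77) and SGO2 (-2.53), which guard centromeric cohesin, and RAD21, the cohesin subunit that separase cleaves, which went from 289 to 126 CPM (-1.20). PPP2R5A, a regulatory subunit of the phosphatase PP2A, was the gene called up (0.86). The core cohesin genes SMC1A (-0.093), SMC3 (-0.079), STAG1 (-0.50) and STAG2 (-0.19) were not called. These genes were picked from the lists after their values were seen.

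**Figure D5:**
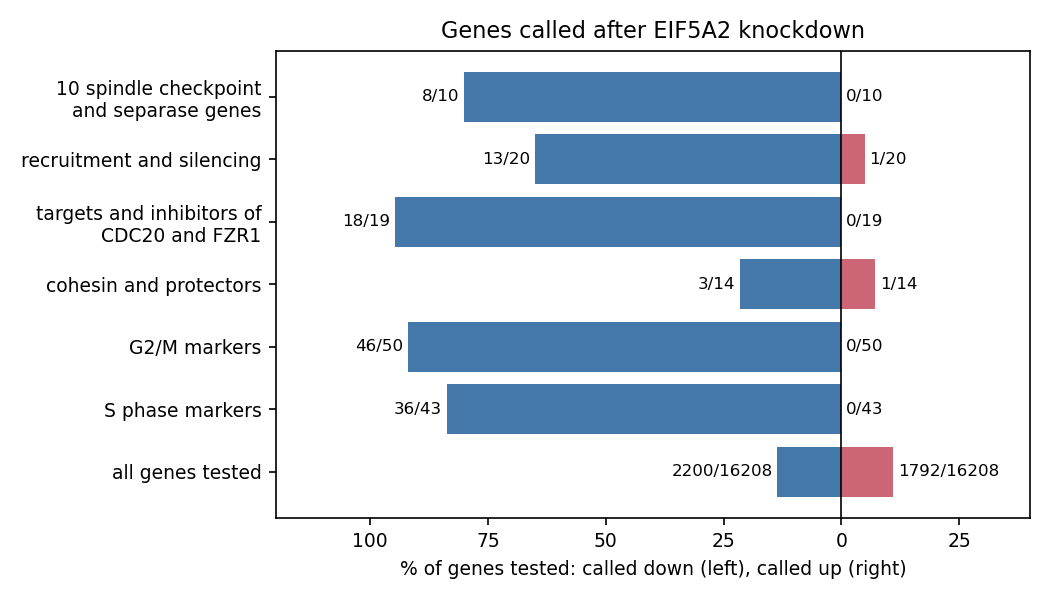
Share of genes tested in each list that were called down (blue, to the left) or up (red, to the right) after EIF5A2 knockdown, with the count of genes beside each bar. The 10 genes described here have 8 called down, the cohesin list 3 of 14, and all genes tested 2200 of 16208.

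Over the 6 libraries, the genes whose log2 CPM followed CDC20 most closely, among genes with at least 10 CPM in NC, were PHF19, a Polycomb-like chromatin protein (r = 0.9995), KIF18B, a kinesin (0.9994), UNG, a uracil-DNA glycosylase (0.9994), ALG1, a mannosyltransferase (0.9994), and ACSS2, an acetyl-CoA synthetase (0.9993). The 6 points form a pair of groups of 3, so that r mostly reflects the contrast between the groups and the tightness within them, and 9.73% of all genes tested had an r of at least 0.95. Among the 10 genes, PTTG1 (0.9985), BUB1 (0.996) and ESPL1 (0.992) followed CDC20 most closely and FZR1 (0.941) less so. BUB3 had an r of -0.060 and MAD1L1 of -0.82.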

How the data were processed

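Paired-end mRNA libraries of SKOV3 cells (3 NC, 3 si-EIF5A2) were sequenced and quantified by the authors with StringTie and ballgown. The deposited values are estimated counts for each gene, whole numbers with no normalization. The aligner and annotation release are not given in the sources used here (the labels list Bowtie with mouse genome builds, which cannot apply to human gene identifiers). Columns were matched to libraries by name, with 0 left over. Of 58825 identifiers, 58472 had a symbol and 58552 were in GENCODE 29 (GRCh38), from which positions and lengths came. Promoters came from RefSeq (GRCh38.p14).

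edgeR 4.0.16 (R 4.3.3) was run on all libraries with condition as the only term: filterByExpr, TMM, robust quasi-likelihood fits, with p-values adjusted over 16208 genes by Benjamini-Hochberg. Calls needed a change of more than 1.5-fold with an adjusted p below 0.05. Standard errors were derived from the F statistic of each gene, and 95% intervals use the fit's degrees of freedom. Rounding changed no value. Depth was taken from the totals divided by the step at low values. On simulated data of 16208 genes, with 200 listed as changed for each size, 97% of genes changed 4-fold and 77% of those changed 2-fold were recovered. In that simulation 7.94% of calls were false. The real comparison called 3992 genes, so these rates may not hold for it.

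The genes, lists and pairs were chosen with earlier results of these data known. Named genes are the 10 genes, EIF5A2, the 5 genes most like CDC20 by Pearson r (at least 10 CPM in NC), genes overlapping on the same strand, and paralogs; other names, MFSD12 and AC108866.1 among them, were chosen after their values were seen. Alternatives were DESeq2 1.42.0, other normalizations, filters and thresholds, the replicate number as a block, dividing counts by their step, and leaving out each library; summing BUB1B with BUB1B-PAK6 was added after the data had been seen. The main fit has no block, as the methods of the study name no covariate. Samples of the same number in the 2 groups did not deviate together. No library or identifier was left out before the filter.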

Additional observations from a re-analysis of the deposited data

How the results depend on the processing

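The number of the 10 genes called down was 8 in the main test. It was 6 with the threshold of an unadjusted p under 0.05 and a fold change over 2, where FZR1 and ESPL1 were no longer called, and 8 under the other alternatives that were run. The number called up was 0, and 1 (MAD1L1) with no limit on the fold change; the adjusted p of MAD1L1 was over 0.05 with no filter on low counts (0.0692) and with the replicate block (0.0689). The median log2 fold change ran from -2.30 to -2.13 with each library left out in turn, where the number called down stayed at 8. With the replicate number as a block, the median was -2.22, 8 genes were called down and 0 up. Over all genes the block gave 3731 calls in place of 3992. The 3992 calls, up or down, made up 24.6% of all genes tested. That share was 14.6% for an unadjusted p under 0.05 with a change over 2-fold, and 36.9% with no fold limit. DESeq2 called 4338 of 19527 genes, and edgeR on unfiltered counts called 3883 of 25627. Dropping a single library gave between 3638 calls in 16710 genes (NC replicate 2) and 3907 in 16789 (si-EIF5A2 replicate 2). The deviations of same-numbered libraries correlated with r of -0.024, 0.0052 and -0.0027, so no shared deviation was seen. Whether same-numbered libraries were prepared together cannot be told from these values. The value of BUB3, which was not called in any fit, changed sign: 0.0072 with RLE normalization, 0.0087 with library size only, 8.4e-04 with the replicate block, and from -0.054 to 0.051 with each library left out. The 5 ratios kept their direction in each run, and a window of 150 bases before the start left CHR matches in 5 genes and CCAAT matches in 4. A level below 3 fragments could not be told from 0, which bears on none of the 10 genes.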

Other observations

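CDC20B, a relative of CDC20 with a role in ciliated cells, was near the limit of detection, with 4, 0 and 0 estimated counts in NC, against 10, 28 and 19 after knockdown. CDC20B passed the filter and was called up by the rule used here (edgeR adjusted p = 0.0297). A fragment is worth 3.74 to 3.82 of these counts, so these values stand for a few fragments, and no fold change is given. MAD2L2, a relative of MAD2L1 that works in DNA repair and translesion synthesis, averaged 43.7 CPM in NC against 30.5 CPM after knockdown. The edgeR fit put this at -0.52 on the log2 scale (standard error 0.10, adjusted p = 0.00476), under the limit of 1.5-fold, beside -2.13 for MAD2L1. The difference between the relatives was not tested. AC108866.1, which lies opposite MAD2L1 and shares 44 exon bases with it, had at most 2 counts in any library.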
